A study of Mus musculus and Rattus norvegicus with 4 samples.

Results

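The 48 genes described here encode transcription factors of the heart and of mesoderm, the embryonic layer that gives rise to muscle, connective tissue and blood. They were taken by name from a list in 10 families, which was drawn up with earlier results of these data known, out of 21887 protein-coding mouse genes on placed chromosomes, and all 48 were found in the gene table. MEF2A binding was measured by ChIP-exo, in which immunoprecipitated DNA is trimmed by an exonuclease to the edges of the bound protein, in C2C12 cells, a mouse myoblast line. The cells had spent 48 h in differentiation medium with 2% horse serum, and the antibody group used here is 1 library of MEF2A from these cells. The series also holds a normal rabbit IgG library from the same cells and a MEF2A and an IgG library from primary rat cardiomyocytes, which were not analysed here. The C2C12 list holds 2797 peaks with the authors' score, from 50.08 to 3100. Peaks are called strong or weak below by this score only. Read depth is unknown, there are no replicates, and no test between conditions was possible. Peak lists carry no expression values, so it was not measured which of the 48 genes the cells transcribe, or whether they carried myoblast markers.

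MEF2 proteins are MADS-box factors that bind AT-rich sites and act with other DNA-binding proteins at muscle genes. In the embryonic heart, MEF2 factors work alongside NKX2-5, GATA4, TBX5, HAND2 and ISL1, the proteins that set up the cardiac gene programme. Many of the same families have other roles in skeletal muscle, cartilage, bone and fibroblasts, tissues whose precursors are close to those of myoblasts.

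MEF2A peaks were assigned to 15 of the 48 genes, or 31.2%. A peak counted for a gene when that gene's span, from its first to its last annotated base, was the nearest protein-coding span and no more than 100 kb away. The 15 genes were Tbx20, Tbx1, Runx1, Runx2, Mitf, Prrx1, Meis1, Meis2, Pbx3, Foxp1, Foxp2, Foxo3, Zeb2, Isl1 and Smad3. Over all protein-coding genes the share was 7.73% (1691 genes). Genes with a long span, or with no other gene nearby, have more sequence from which to draw peaks. The median span was longer for the 48 genes than for all protein-coding genes. Of their 20 peaks 12 lay inside a span and 8 outside. How much span length and distance to other genes each added to the share was not tested. The median territory, the length of genome assigned to a gene, was 204 kb for the 48 genes and 45.8 kb for all protein-coding genes. All protein-coding genes were split into 10 equal classes by territory length. In the classes of the 48 genes, weighted by their number in each, the average share with a peak was 18.8%, equal to 9.02 of 48 genes. The observed share was 1.66 times that value. These shares describe 1 list of peaks and were given no test, because the genes were chosen with earlier results of the same data known.

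Most of the genes with a peak were those with the longest territories. In the longest of these classes, with territories of 201 kb and more, 11 of 25 genes had a peak, and 26.7% of all genes in that class did. The next class gave 3 of 10, with 14.2% of all its genes. Of the 13 genes in the 8 shorter classes only Tbx1 had a peak. Genes of the list with a peak had a median territory of 318 kb and those without one 169 kb. The same direction held over all protein-coding genes, at 138 and 41.7 kb.

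**Figure D1:**
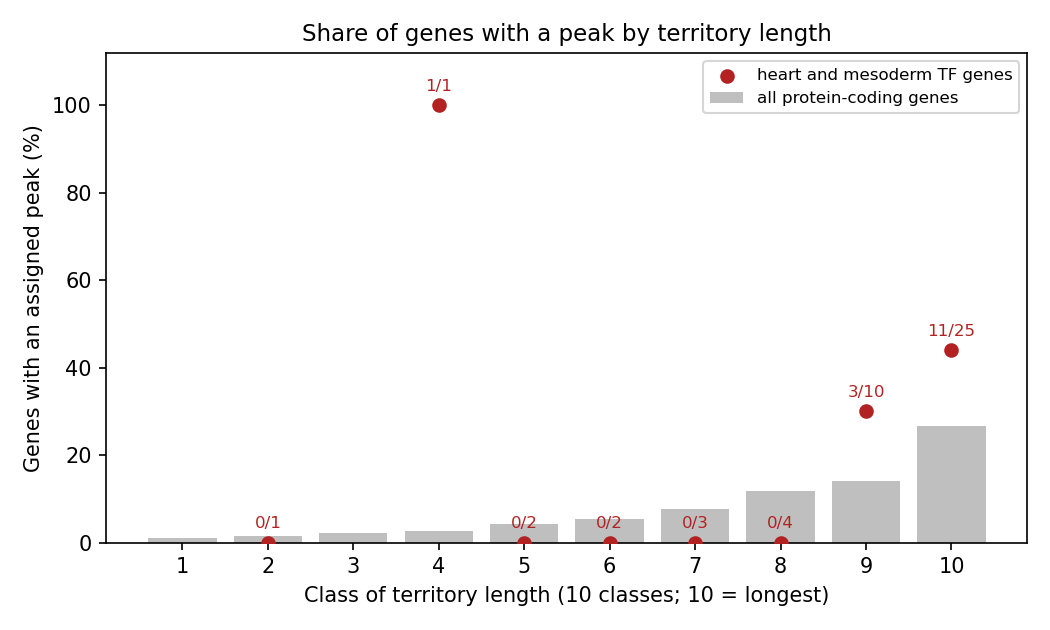
Share of genes with an assigned MEF2A peak (y axis, percent) in 10 classes of territory length (x axis, class 10 longest), for all protein-coding genes (grey bars) and the 48 genes (red points, with genes with a peak over genes in the class). The grey bars rise from 1.10% in the first class to 26.7% in the last, and the red points hold 11 of 25 genes in class 10 and 3 of 10 in class 9; the point in class 4 is the single gene Tbx1.

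The 15 genes held 20 peaks, with scores from 51.48 to 359.04. The highest peak scored 200 or more at 5 genes (Runx1, Tbx20, Runx2, Mitf and Prrx1), between 100 and 200 at Foxp1 and Meis1, and under 75 at the remaining 8. No gene had its highest score between 75 and 100, and the limit of 75 was chosen after the values were seen. The median of the highest scores was 71.4, and it was 88.7 over all 1691 genes with a peak. Highest scores of 200 or more were held by 33.3% of the 15 genes and 19.8% of all genes with a peak. Highest scores under 75 were held by 53.3% and 40.1%. Of single peaks, 7 of 20 (35.0%) scored 100 or more, close to the 36.8% of the whole list. Those 7 peaks had a median width of 269 bp (174 to 422 bp), and the 13 weaker ones 127 bp (115 to 366 bp).

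**Figure D2:**
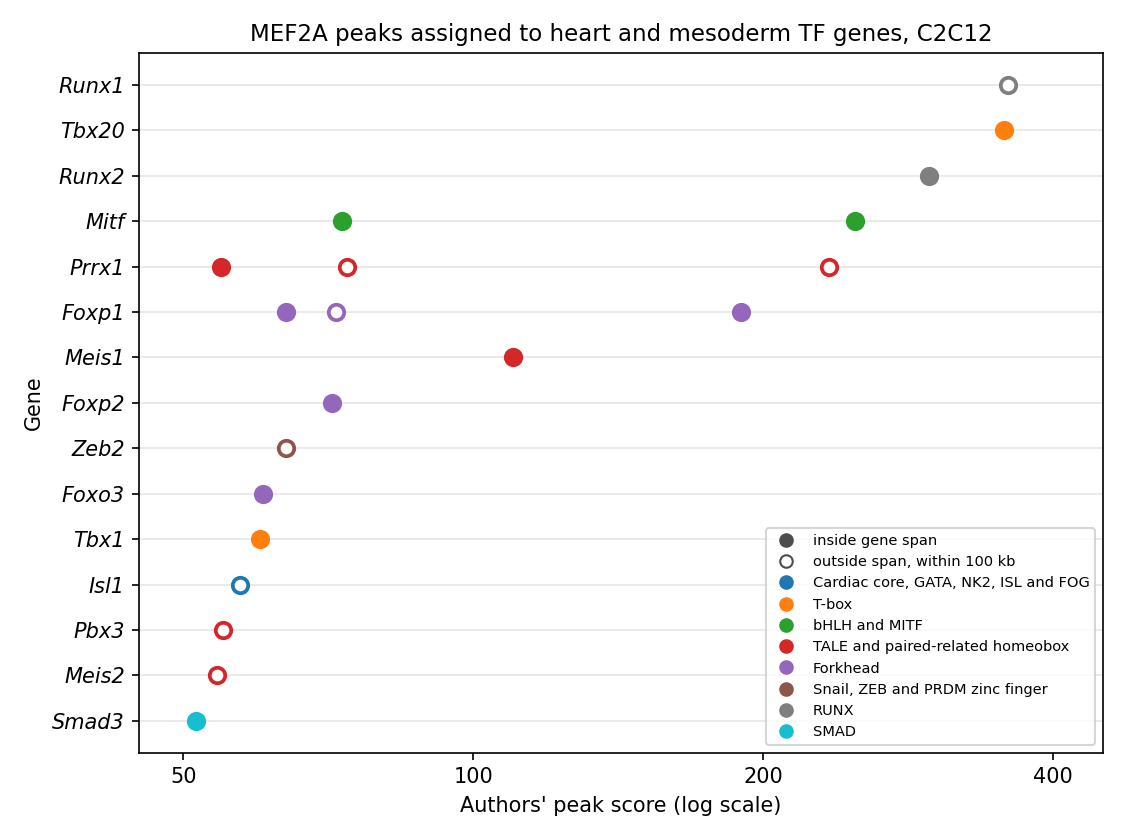
Authors' score of each of the 20 MEF2A peaks (x axis, log scale) at the 15 genes to which they were assigned (y axis), with filled points inside the gene span, open points outside it and colours for families. Scores run from 51.48 at Smad3 to 359.04 at Runx1; Prrx1, Foxp1 and Mitf hold several peaks, in each case 1 strong and the others under 75.

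T-box factors pattern the heart chambers, the conduction system and the outflow tract, and 2 of the 7 genes listed had a peak, against 1.15 expected from genes of the same territory classes. Tbx20, a chamber regulator that can repress or activate its targets, spans chromosome 9 from 24720812 to 24774303 (mm10). Its single peak, at 24745058 to 24745233, lay inside the span and 29.1 kb from the annotated start. Its score of 355.75 ranked 198 of 2797, and the next protein-coding gene, Dpy19l2, was 48.6 kb away. Tbx1, the outflow tract and pharyngeal regulator (chromosome 16, 18580979 to 18590671), held a weak peak of score 60.07 at 18586065 to 18586197. The remaining T-box genes had none. Tbx5, which acts with GATA4 and NKX2-5 in the atria and left ventricle, and Tbx3, a repressor in the conduction system, are neighbours on chromosome 5. They shared their nearest peak, which scored 60.07 and was 1.14 Mb from Tbx5 and 1.01 Mb from Tbx3. The nearest peak was 631 kb from Tbx2, 320.1 kb from Tbx15 and 296 kb from Tbx18.

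For 18 of the 20 peaks a start of their own gene was in the promoter table. Among these 18 the Tbx1 peak was the closest to such a start, at 2.70 kb, so no distance was under 1 kb. No peak overlapped a promoter window, defined as 250 bases before to 50 after a start, of any of the 30 listed genes in the table. Over the whole list 85 of 2797 peaks (3.04%) overlapped such a window. The bases before the Tbx1 start nearest to the peak (chr16:18588900-18589149) and before the Tbx20 start (chr9:24774304-24774553) are shown as the promoters of the gene with the closest peak and of the gene with the strongest peak inside its span. Both are on the minus strand, read 5′ to 3′ towards the start, from RefSeq (GRCm38.p6).
Tbx1: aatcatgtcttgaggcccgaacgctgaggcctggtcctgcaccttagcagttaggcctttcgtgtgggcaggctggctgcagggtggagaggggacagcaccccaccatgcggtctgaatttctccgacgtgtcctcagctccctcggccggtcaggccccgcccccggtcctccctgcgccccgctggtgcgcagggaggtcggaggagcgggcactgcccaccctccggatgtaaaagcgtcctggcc
Tbx20: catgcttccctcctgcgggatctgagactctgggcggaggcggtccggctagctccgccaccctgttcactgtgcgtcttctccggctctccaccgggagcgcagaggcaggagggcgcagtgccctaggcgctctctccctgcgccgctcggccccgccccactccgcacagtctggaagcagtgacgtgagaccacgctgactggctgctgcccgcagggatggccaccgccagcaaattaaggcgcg
Neither stretch holds the MEF2 motif, and they contain 67.2% (Tbx1) and 68.8% (Tbx20) G and C.

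Both RUNX genes of the list had a strong peak, against 0.534 genes with any peak expected from territory. RUNX factors bind DNA with CBFB as partner. RUNX1 is needed for blood formation and is also induced in denervated muscle, and RUNX2 directs bone formation. Runx1 (chromosome 16, 92601466 to 92826074) had the highest score of the 20 peaks, 359.04 (rank 196). That peak, at 92573338 to 92573736, lay 27.7 kb beyond the 3′ end of the span, with Clic6 not much farther away at 32.1 kb. Runx2 (chromosome 17, 44495987 to 44814797) contained a peak of score 297.21 at 44770817 to 44771238, 43.4 kb from its start. The span of Supt3, which overlaps that of Runx2, came within 5.88 kb of the same peak. Cbfb, which is not in the list of 48, had a peak of score 215.88 at 9.02 kb upstream.

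Among homeobox genes of the TALE and paired-related families 4 of 7 had a peak, against 1.49 expected from genes of the same territory classes. Nkx2-5 and Isl1, which also encode homeodomain proteins, are counted with the core cardiac genes. Prrx1 marks limb and connective tissue mesenchyme. It spans chromosome 1 from 163245119 to 163315145 and had 3 peaks. The strongest, of score 233.93, lay at 163222435 to 163222703, 22.4 kb beyond the 3′ end. Of the others, a peak of score 73.94 lay 9.38 kb beyond that end and one of score 54.68 inside the span. Meis1, whose product partners PBX and HOX proteins, contained a peak of score 109.97 at 18927515 to 18927688 on chromosome 11. Its relative Meis2 was 80.8 kb from a peak of score 54.14 upstream, the most distant assignment among the 15 genes. Pbx3, another partner of MEIS proteins, was 31.5 kb from a peak of score 54.95. The Iroquois genes Irx3, Irx4 and Irx5, which act in the ventricles, had no peak. Irx3 and Irx5 are neighbours and shared their nearest peak (score 144.56), at 403 and 962 kb, and it lay nearest to Fto. The nearest to Irx4 was 178 kb away.

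Forkhead genes with a peak numbered 3 of 6, against 1.07 expected from territory. Foxp1, a repressor needed for heart development, spans 597 kb of chromosome 6 (98925342 to 99522746). It contained peaks of score 189.41, at 99485223 to 99485465, and of score 63.91, and another of score 72.02 lay 58.7 kb beyond its 3′ end. The strong peak was 35.5 kb from the nearest of 3 annotated starts. Foxp2, best known for its role in speech and motor circuits, contained a peak of score 71.36. Foxo3, a stress and atrophy regulator, contained 1 of score 60.54. Foxo1, which acts in the same atrophy pathway, had none assigned. A peak of score 95.22 was 87.1 kb from it but nearer to Maml3. Foxc1 and Foxc2, regulators of vessels and outflow tract, were 560.3 and 679 kb from a peak.

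**Figure D3:**
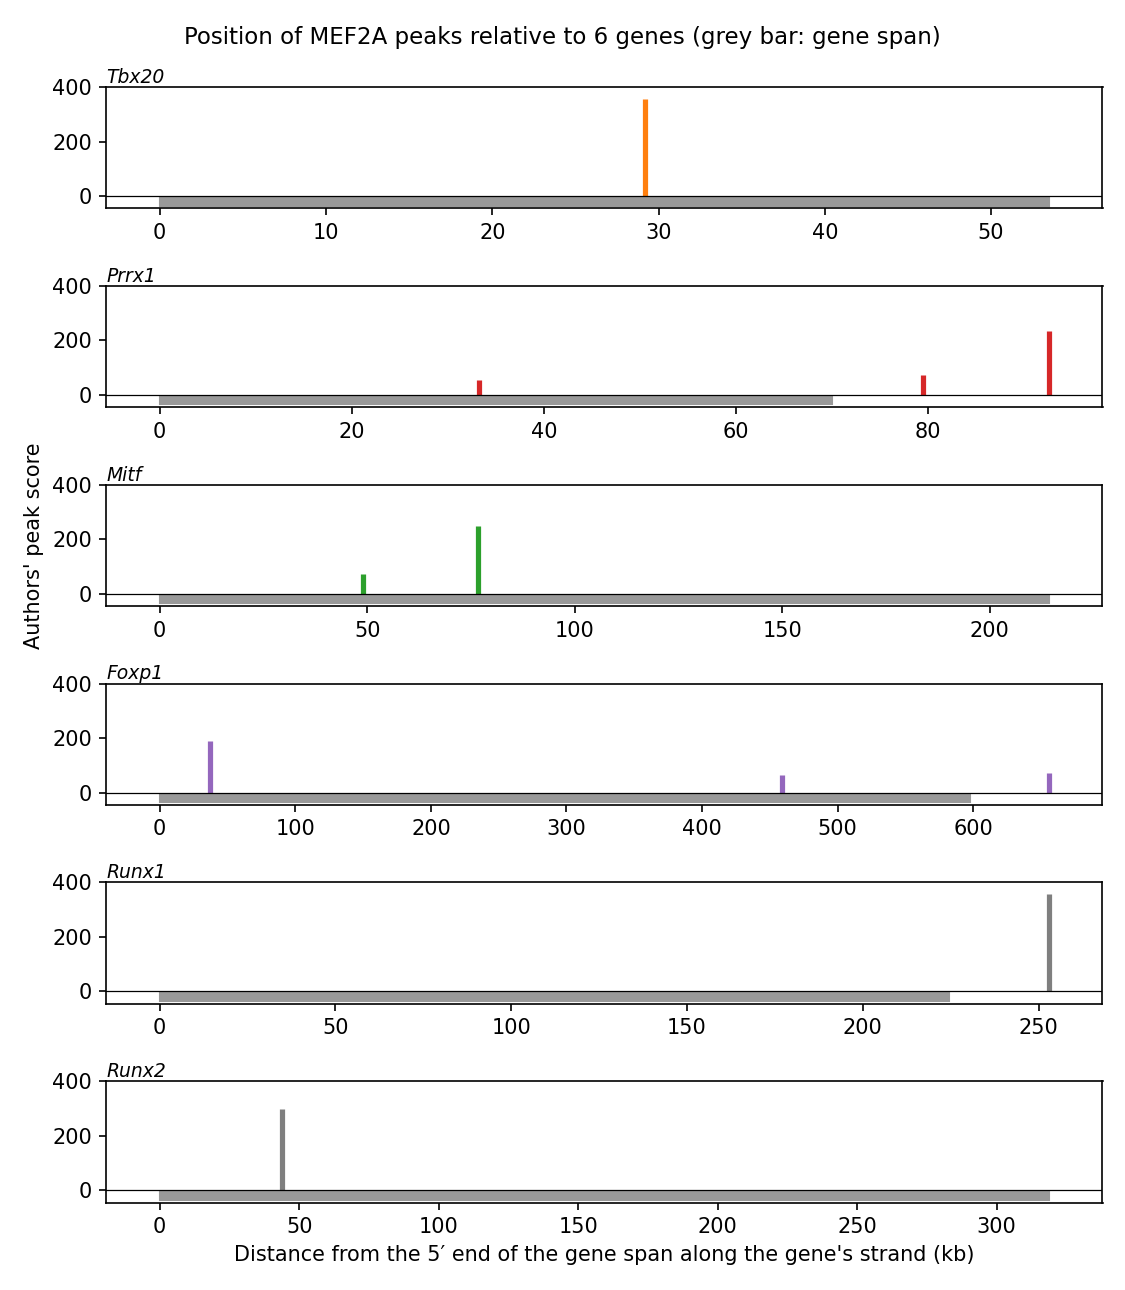
Peaks at Tbx20, Prrx1, Mitf, Foxp1, Runx1 and Runx2, 1 gene per panel, with distance from the 5′ end of the gene span along its strand (x axis, kb, a different scale in each panel) and the authors' score (y axis, bar height); the grey bar is the span. Tbx20, Mitf and Runx2 hold their strongest peak inside the span, Foxp1 near its 5′ end, and Runx1 and Prrx1 beyond the 3′ end.

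Of the 9 bHLH genes, counted with Mitf, only Mitf had a peak, against 1.04 expected from territory. MITF directs pigment cell genes and is also made in heart muscle. The gene (chromosome 6, 97807002 to 98021360) contained a peak of score 248.94 at 97883595 to 97883895 and a weaker one of score 73.11. They were 45.9 and 48.8 kb from the nearest of its 3 annotated starts. Hand2, which builds the right ventricle, was 164 kb from a peak of score 84.61. Hand1, its counterpart of the left ventricle, was 1.49 Mb from one. The NOTCH-induced repressor genes Hey1, Hey2 and Heyl lay 411, 604 and 344 kb away. Tcf21, a marker of epicardium and fibroblasts, was 516 kb from a peak and Twist1 569 kb. Twist2, like Twist1 a repressor of myogenic bHLH factors, lay 109.5 kb from a peak of score 219.96 that had no protein-coding gene within 100 kb. It fell just outside the limit, and Meis2 at 80.8 kb was the last gene inside it.

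Among the core cardiac genes Isl1 had a peak, and the others had none. ISL1 marks the second heart field, the progenitors of the right ventricle and outflow tract. Isl1 (chromosome 13, 116298270 to 116309688) was 46.3 kb from a weak peak of score 57.23 on its upstream side, and the next gene, Parp8, was 495 kb from that peak. Isl1 was the only 1 of 6 genes with a peak in the group of Nkx2-5, GATA, ISL and FOG factors. That count lies near the 1.07 expected from territory. Nkx2-5, the earliest cardiac homeobox gene, was 188 kb from its nearest peak (score 186.38), which lay nearest to Ergic1. Gata4 was 22.6 kb from a peak of score 74.1, closer than the peaks assigned to Runx1, Pbx3, Isl1 and Meis2, but Fdft1 was nearer still. Gata6 was 340.0 kb, Gata5 1.59 Mb and the GATA cofactor gene Zfpm2 508 kb from a peak.

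The Snail, ZEB and PRDM zinc finger genes gave 1 gene of 4, against 0.943 expected from territory. Zeb2, which represses epithelial genes, was 16.1 kb from a peak of score 63.92 beyond its 3′ end. Its paralog Zeb1 was 145 kb from the nearest peak, of score 100.9. Snai2, a repressor that opposes MYOD in myoblasts, was 333 kb away and Prdm16, the brown fat regulator, 271 kb. Smad3, which carries TGF-beta signals to the nucleus and inhibits myogenic factors, contained the weakest of the 20 peaks, of score 51.48 and 366 bp wide, at 63702703 to 63703068 on chromosome 9.

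No SOX or NFI gene of the list had a peak. Sox6, a repressor of slow fibre genes, had the most distant nearest peak of all 48 genes, at 2.35 Mb. Sox4 was 198 kb and Sox9, the cartilage regulator, 273 kb from one. Nfix, which drives the fetal switch in muscle, was 368 kb away, Nfib 157 kb and Nfia 1.21 Mb. From territory alone 0.801 SOX and 0.651 NFI genes were expected, so counts of 0 lie near that value.

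Across the 33 genes without a peak, 2 (Gata4 and Foxo1) had a peak within 100 kb that was nearer to another gene. For 17 the nearest peak was between 100 and 500 kb away, and for 14 it was farther, in 6 cases over 1 Mb. Their median distance was 368 kb, and it was 402 kb over all protein-coding genes without a peak. A list that begins at a score of 50.08 says nothing of weaker sites.

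**Figure D4:**
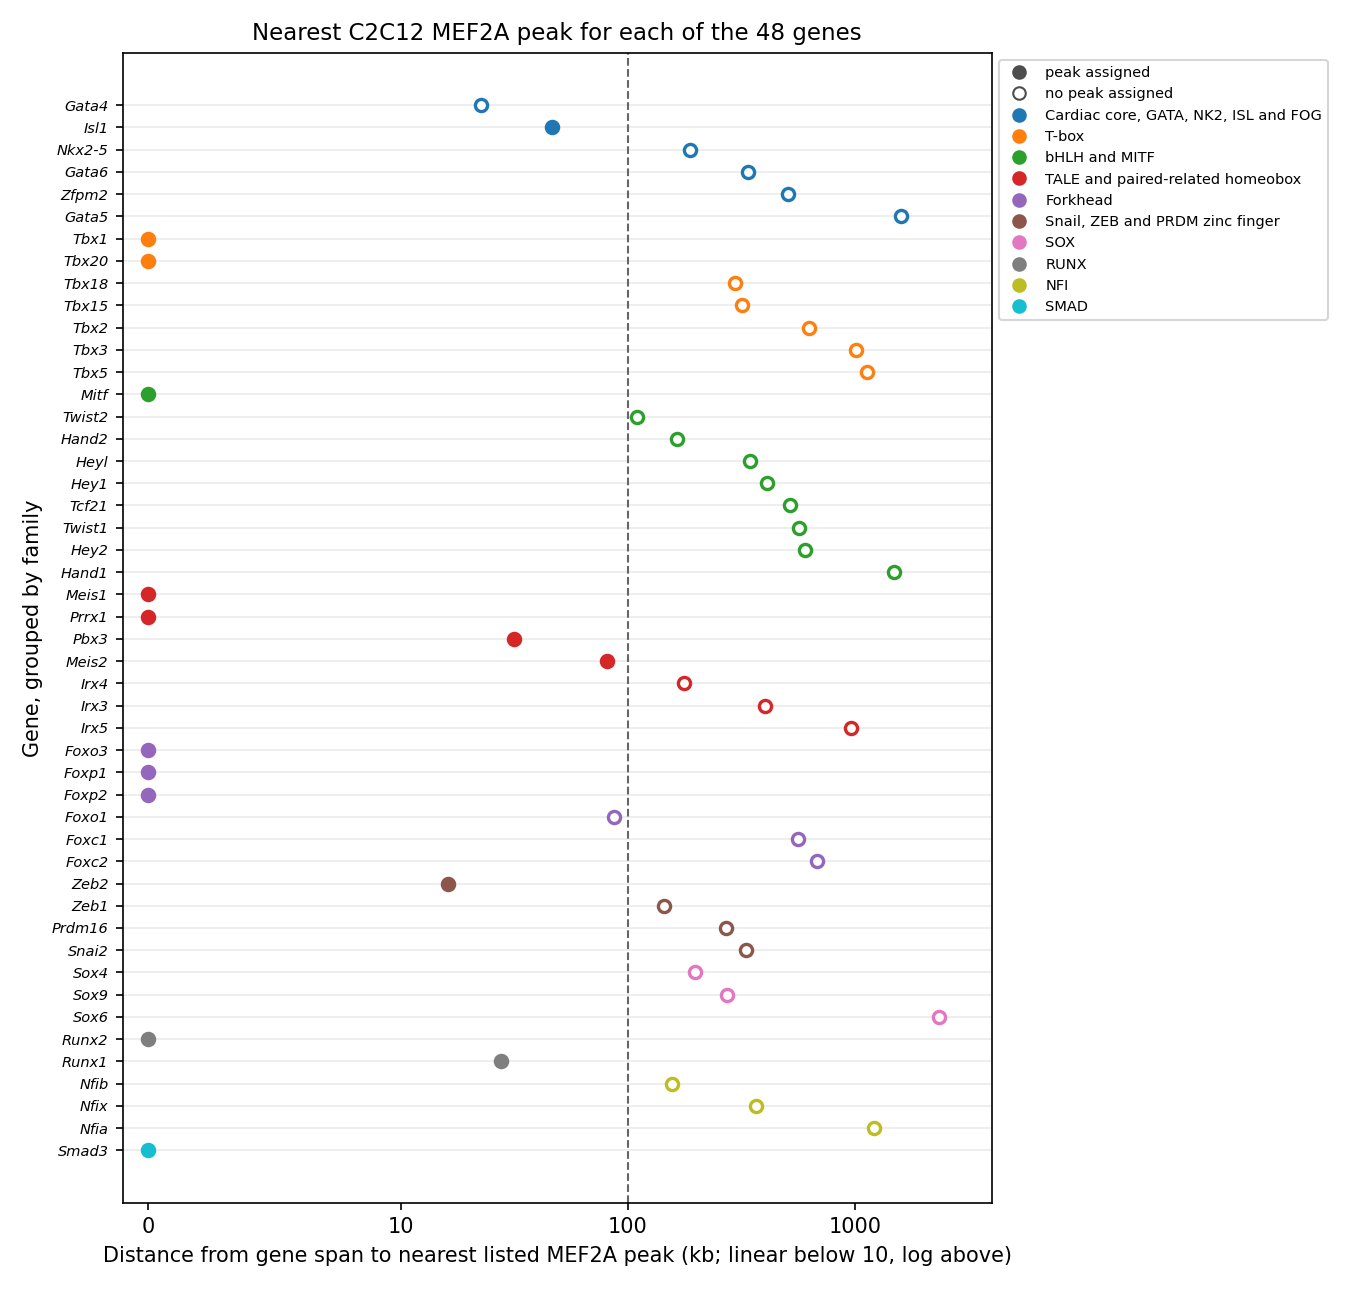
Distance from the span of each of the 48 genes to the nearest listed MEF2A peak (x axis, kb, linear below 10 and logarithmic above), with genes grouped by family (y axis and colour); filled points have a peak assigned, open points do not, and the dashed line marks 100 kb. All SOX and NFI genes lie to the right of the line, and Gata4 and Foxo1 are the 2 open points to its left.

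The MEF2 motif was searched in the promoter windows, on both strands. It was present in 2 of 47 windows of the 30 genes in the table (4.26%) and in 3.19% of all 32851 windows. None of the 22 windows of genes with a peak held it. With the motif in 3.19% of all windows, 22 windows are too few to read a difference from. Both matches belonged to genes without an assigned peak, Nfia and Sox6, and Sox6 alone has 6 of the 47 windows. The E-box CANNTG, the site of bHLH factors such as MYOD, HAND and TWIST, was found in 57.4% of the 47 windows and 72.3% of all. The 2 stretches with a match are shown because no other window of the list held the MEF2 motif. They are the bases before a start of Nfia (chr4:97581693-97581942, plus strand) and before 1 of the 6 annotated starts of Sox6 (chr7:115801610-115801859, minus strand), from RefSeq (GRCm38.p6), 5′ to 3′, with the match in capitals.
Nfia: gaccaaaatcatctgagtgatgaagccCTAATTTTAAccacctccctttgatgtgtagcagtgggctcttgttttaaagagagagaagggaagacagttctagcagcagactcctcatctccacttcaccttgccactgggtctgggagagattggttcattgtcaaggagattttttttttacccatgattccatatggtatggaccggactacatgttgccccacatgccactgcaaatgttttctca
Sox6: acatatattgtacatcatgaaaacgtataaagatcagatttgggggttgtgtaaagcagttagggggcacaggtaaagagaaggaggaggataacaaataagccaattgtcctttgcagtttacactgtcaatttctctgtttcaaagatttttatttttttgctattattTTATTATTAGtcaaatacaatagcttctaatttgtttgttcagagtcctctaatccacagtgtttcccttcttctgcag
The Nfia start lies 3.88 kb and the Sox6 start 239 kb inside the span from its 5′ end. The match ends 213 bases before the start at Nfia and 69 bases before it at Sox6. A match in letters describes the sequence only.

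Paralogs outside the list gave nearly the same ratio to territory as the list itself. Of 86 other genes of the 10 families 15 had a peak (17.4%), 1.67 times the 10.5% found in genes of their territory classes. The TALE and paired-related homeobox relatives held 5 of 11, against 1.54 expected. Among these 5 homeobox genes were Prrx2 (score 160.51, at 1.96 kb), Irx2 (107.94, at 76 kb), Mkx (97.36, inside) and Pknox2 (64.32, inside). The GATA, NK2, ISL and FOG relatives together gave 1 of 10, against 0.878 expected. The NK2 and ISL genes in that group had no peak. Prrx1 and Prrx2 both had their strongest peak outside the span, on opposite sides of the gene, beyond the 3′ end at Prrx1 and upstream at Prrx2.

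The RUNX relatives gave 2 of 3, against 0.463 expected, Cbfb and Runx1t1 (52.7, inside). Mecom, the paralog of Prdm16, had 4 peaks with a highest score of 175.82, and Snai1 was 27.6 kb from 1 of score 63.62. They made 2 of 5 zinc finger relatives, against 0.745 expected. Sox5 (81.26, inside) and Sox11 (93.53, at 30 kb) made 2 of 9 SOX relatives, against 0.965 expected. The SOX genes of the list gave 0 of 3, against 0.801. The forkhead genes Foxn2 (60.03, inside) and Foxo6 (60.69, at 14.5 kb) made 2 of 16, against 1.53 expected. The bHLH gene Helt (65.54, at 44.3 kb) was 1 of 14, against 0.992. Gata2 (103.92, inside) also had a peak. None of the 10 other T-box genes and none of the 7 other SMAD genes had a peak, against 0.846 and 1.0 expected from territory. Highest scores of 200 or more were held by 1 of the 15 paralogs with a peak (6.67%) and by 5 of the 15 genes of the list (33.3%). Over all protein-coding genes with a peak the share was 19.8%. The median territory was 82.4 kb for the 86 paralogs and 204 kb for the 48 genes. The difference in scores was not tested.

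The weakest Mecom peak, of score 54.18, is the only one at a gene of either list whose bases lie in a promoter window, that of the noncoding gene Mannr. All 83 bases of the peak (chr3:29890984-29891066, plus strand, GRCm38.p6) are shown because no other peak at these genes has its bases in the promoter table. It ranked 2530 of 2797.
Mecom peak: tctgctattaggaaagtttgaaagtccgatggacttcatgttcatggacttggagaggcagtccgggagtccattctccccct
It holds neither the MEF2 motif nor an E-box.

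The share of genes with a peak moved with the rule. At a score of 100 or more 7 genes remained, or 14.6%, with 9.09% in matched genes and 3.47% in all. At 200 or more the 5 genes Runx1, Tbx20, Runx2, Mitf and Prrx1 made 10.4%, with 4.08% in matched genes and 1.53% in all. Peaks inside the span were found at 10 genes (20.8%), with 12.8% and 4.57%. When any peak within 100 kb counted, whichever gene was nearest, Gata4 and Foxo1 joined and the share was 35.4%, with 27.1% and 22.0%. Limits of 10, 50 and 500 kb from the nearest span gave 10, 14 and 18 genes, with 5.75%, 7.13% and 8.61% of all protein-coding genes. Letting noncoding genes compete for peaks left 13 genes (5.96% of all), assignment to the nearest gene end 14 (7.42%), and leaving out peaks over 2 kb wide 15 (7.72%). The ratio to matched genes was 1.31 when any peak within 100 kb counted, the lowest of the 12 rules compared. It was highest, at 2.55, for scores of 200 or more, where it rests on 5 genes. These belong to a list drawn up with earlier results of the same data known. Of the 86 paralogs 1 had a peak at that limit.

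**Figure D5:**
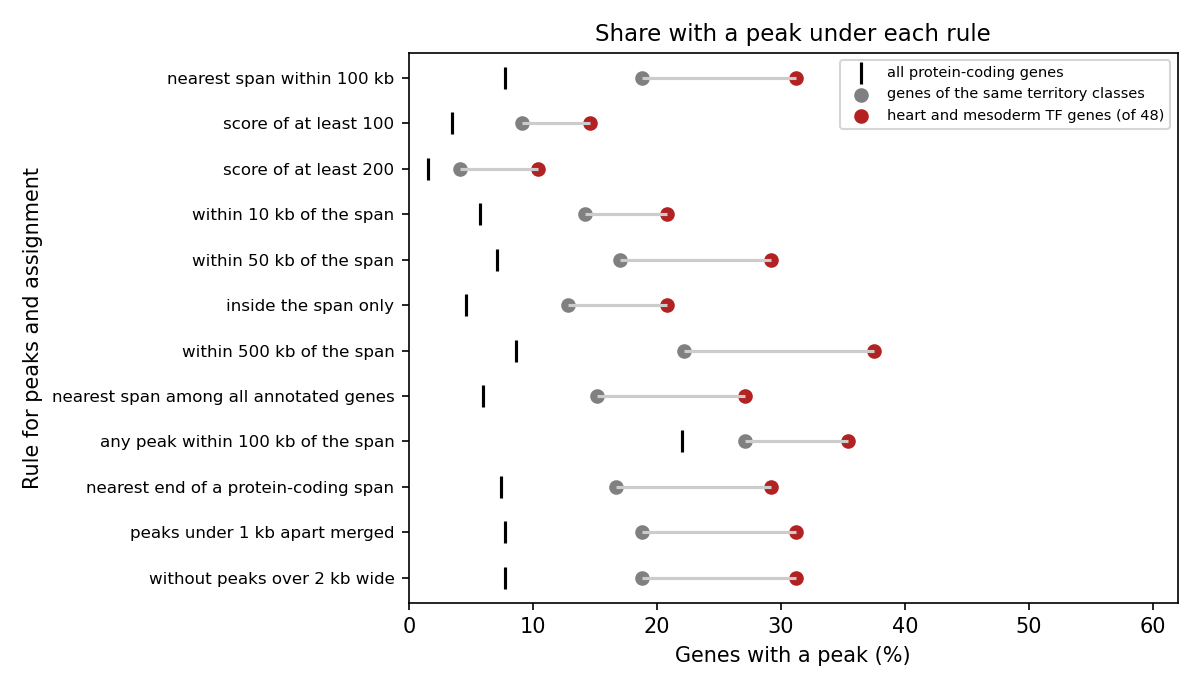
Share of genes with a peak (x axis, percent) under 12 rules for peaks and assignment (y axis), for the 48 genes (red), genes of the same territory classes (grey points) and all protein-coding genes (black ticks). The red point lies to the right of the grey one in every row, with the smallest ratio, 1.31, where any peak within 100 kb counts.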

How the data were processed

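Per the labels' protocols, nuclei were sonicated, MEF2A complexes were captured with an antibody, and ChIP-exo fragments were selected on a gel. MACS 1.4.2, BWA 0.5.9 and CASAVA 1.7.0 are listed in the submitters' processing notes beside SAMtools and Picard, without settings, as are mm10 and rn5. The authors deposited 1 peak list per MEF2A library, headerless, in which every peak has a position and a score. No source used here gives the scale of the score, so it was used only to describe, rank and filter peaks within the list. Whether IgG served as control is not given either. Each of the 4 groups has 1 library.

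Gene spans are those of RefSeq on GRCm38.p6, which underlies mm10. Starts and strands came from the RefSeq promoter table, which covers 30 of the 48 genes. Distances are between edges, and 0 inside a span. Territory is the length of genome nearest to a gene within 100 kb, in 10 classes, and matched shares average the class shares over the list, with no random draws. The families and paralogs, and the members themselves, were chosen with earlier results of these data known. All members are named, and paralogs with a peak are named with their highest score, except for a result that is not reported here. The promoters shown were chosen after the values were seen. Rat peaks were not used, for lack of an annotation. Assignment and territory were checked on simulated data in 5 rounds. Alternatives were other score and distance limits, other gene sets, nearest ends, any peak within 100 kb, merged peaks, no wide peaks and, added after seeing the data, 50 territory classes. Python 3.11.15, numpy 2.4.6, pandas 2.3.3 and matplotlib 3.10.9 were used.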

Additional observations from a re-analysis of the deposited data

How the results depend on the processing

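The count of 15 genes with a peak stayed within 1.5 times of itself in 9 of 11 alternatives, from 10 genes (within 10 kb, or inside the span only) to 18 (within 500 kb). It left that range at a score of at least 100, with 7 genes and 7 peaks in 5 families, and at 200, with 5 genes and 5 peaks in 4 families, where fewer peaks enter by construction. Peaks numbered 13 within 10 kb, 12 inside the span and 33 within 500 kb. The median highest score, 71.4, was 249 at a score of at least 100 and 297 at 200, 92.0 within 10 kb, 90.7 within 50 kb and inside the span, 103 within 500 kb, 95.2 for any peak within 100 kb and 67.6 for the nearest gene end. The share in genes of the same territory classes, 18.8%, was 9.09% and 4.08% at the 2 score limits, 14.2% within 10 kb, 17.0% within 50 kb, 22.2% within 500 kb and 12.8% inside the span. It was 15.2% with noncoding genes as competitors, 27.1% for any peak within 100 kb, 16.7% for the nearest gene end and 19.6% with 50 territory classes. Paralogs with a peak numbered 6 and 1 at the 2 score limits, 9 within 10 kb, 7 inside the span, 8 with noncoding genes and 25 for any peak within 100 kb. With noncoding genes Runx1 and Meis2 lost their peak, and with the nearest gene end Runx2 did, its peak going to another gene. Merging close peaks changed none of these values, nor did leaving out wide peaks. Territories were computed once, for the nearest span within 100 kb, and used in every alternative. Scores from 1 library without depth give no measure of which weak peaks would recur, which touches the 8 genes with highest scores under 75. No paired analysis was possible because no group holds more than 1 library. Motifs at peaks and rat peaks at these genes were not run.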

Other observations

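Noncoding genes shared some of the sites. The Foxo3 peak lay inside the lncRNA gene Gm38485, and the Prrx1 peak inside the gene span also lay inside Gm20471 and LOC108167740. The strongest of the 20 peaks at the listed genes, at 27.7 kb from Runx1, was 9.67 kb from the lncRNA gene Gm30224, and the Meis2 peak was 18.7 kb from a snoRNA gene and 80.8 kb from Meis2. These genes were chosen after their values were seen, and their expression in C2C12 cells was not measured here.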
